A study of Homo sapiens with 8 samples.

Results

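The genes of 10 core stress granule proteins were examined in OVCAR3 cells, a human ovarian cancer cell line, with knockdown of TARG1 or replacement of RACK1. The genes are G3BP1, G3BP2, CAPRIN1, USP10, TIA1, TIAL1, ATXN2, PABPC1, UBAP2L and FMR1. They were chosen by name, and each matched 1 of the 20165 gene rows of the count tables, with no other gene in that row. Knockdown of TARG1 went with less RNA of G3BP2 and CAPRIN1 (0.578 and 0.614 of the siControl level) and with more RNA of TIA1 (1.72-fold), FMR1 (1.33-fold), PABPC1 (1.22-fold) and USP10 (1.17-fold). G3BP1, the paralog of G3BP2, was at 0.957 of its siControl level and did not pass the test. Of all 14024 genes tested, 46.6% passed with knockdown of TARG1. Between cells with RACK1-Mut and cells with RACK1-WT, 0 of the 10 genes passed the test, and 0.00713% of all genes tested did.

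RNA-seq libraries were made from total RNA, depleted of rRNA, of the lysates also used for ribosome profiling, with 2 libraries in each of 4 groups. The siControl and siTARG1 cells were OVCAR3 cells that received 30 nM of siRNA, either a control or one against OARD1, and were harvested after 48 h. OARD1 is the gene of TARG1, an enzyme that removes ADP-ribose from proteins. The study lists a pair of TARG1 siRNAs and does not say which was sequenced. The cells with RACK1-WT or RACK1-Mut were stably transduced, selected OVCAR3 cells that received 1 µg/ml doxycycline (Dox) for 48 h. Dox induces both an shRNA against endogenous RACK1, a protein of the small ribosomal subunit, and an HA-tagged RACK1 cDNA, which is wild type or mutated at the sites that carry mono(ADP-ribose) (MARylation). The RACK1 cells were not transfected with siRNA and the siRNA cells were not treated with Dox, so between these experiments the line, the drug and the transfection cannot be told apart. The labels name no stressor such as arsenite for these libraries, and the values are those of cells with no stressor named. Per the study's methods, sequencing experiments used independent biological samples, and the labels number the replicates without naming their cultures.

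Stress granules are condensates of mRNA and protein that form when translation initiation stalls and mRNAs leave polysomes. G3BP1 and G3BP2 are RNA-binding scaffolds that cross a threshold for condensation when free RNA becomes available. CAPRIN1 and USP10 bind the same site on the G3BP proteins, and CAPRIN1 promotes condensation whereas USP10 holds it back. UBAP2L is a further scaffold protein of these granules. TIA1 and TIAL1 carry prion-like domains and bind U-rich RNA. ATXN2 binds the poly(A)-binding protein PABPC1, which coats mRNA tails, and FMR1 encodes the fragile X protein, an mRNA-binding regulator of translation. The counts are of RNA, and granules and protein levels are not analysed here.

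Exon counts per library summed to between 30989049 and 42668783, and a core gene had between 1070 and 33368 counts in a library. Counts of OARD1 were 1935 and 1591 in the siControl libraries against 131 and 166 in the siTARG1 libraries. Counts of RACK1 were 55444 and 66620 with RACK1-WT and 56616 and 62596 with RACK1-Mut, against 184269 and 138098 with siControl. The endogenous transcript and the cDNA are not told apart in them. As CPM (exon counts scaled to a common library size), RACK1 was at 1760 and 1900 with RACK1-WT and at 1400 and 1450 with RACK1-Mut. The siControl libraries were at 4620 and 4520 CPM. Both RACK1-Mut libraries thus lay below both RACK1-WT libraries. Of 8 markers of ovarian epithelial cells, all were detected in each library, at 7.22 CPM for FOLR1 or more. The blood, liver, stromal and muscle markers PTPRC, CD3E, ALB, COL1A2 and DES lay at or below 1.81 CPM, and PECAM1 was not analysed here.

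The levels of the core genes were compared per length, with the authors' coding-sequence RPKM (reads scaled by region length and library size). In siControl cells CAPRIN1 had the highest mean at 99.2, followed by PABPC1 at 80.4, G3BP1 at 78.4 and G3BP2 at 55.9. FMR1 was at 23.1, USP10 at 17.5, TIAL1 at 12.02, UBAP2L at 11.03, TIA1 at 9.72 and ATXN2 at 4.34. PABPC1 and G3BP1 overlapped between the siControl libraries (82.9 and 78.0 against 85.6 and 71.2), whereas the other neighbours in this order did not overlap. Against all genes tested, CAPRIN1 lay above 97.3%, PABPC1 above 96.7%, G3BP1 above 96.6% and G3BP2 above 94.9%, whereas ATXN2 lay above 51.5%. CAPRIN1, PABPC1 and the G3BP genes were thus among the genes with much RNA, and ATXN2 was near the middle.

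The comparison of siTARG1 with siControl asks how RNA differs after siRNA against TARG1. Effects of the siRNA on other genes cannot be told apart here from those of less TARG1. The p of edgeR's quasi-likelihood (QL) test was adjusted by the Benjamini-Hochberg method, and 6 of the 10 core genes passed a threshold of 0.05. Of these 4 were higher and 2 were lower. Of all 14024 genes tested 46.6% passed, with 23.5% higher and 23.1% lower, and the count of 6 of 10 is to be read against these shares. The median log2 fold change of the core genes was 0.05, against 0.01 for all genes tested, and the median size of the change was 0.26 against 0.28. The median of the core genes moved with 1 library left out, to 0.01 without siControl replicate 1 and to 0.12 without siControl replicate 2. The libraries of both groups did not overlap for 7 of the 10 core genes and for 70% of all genes tested. In bulk RNA, less RNA per cell and fewer cells with the RNA cannot be told apart.

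**Figure D1:**
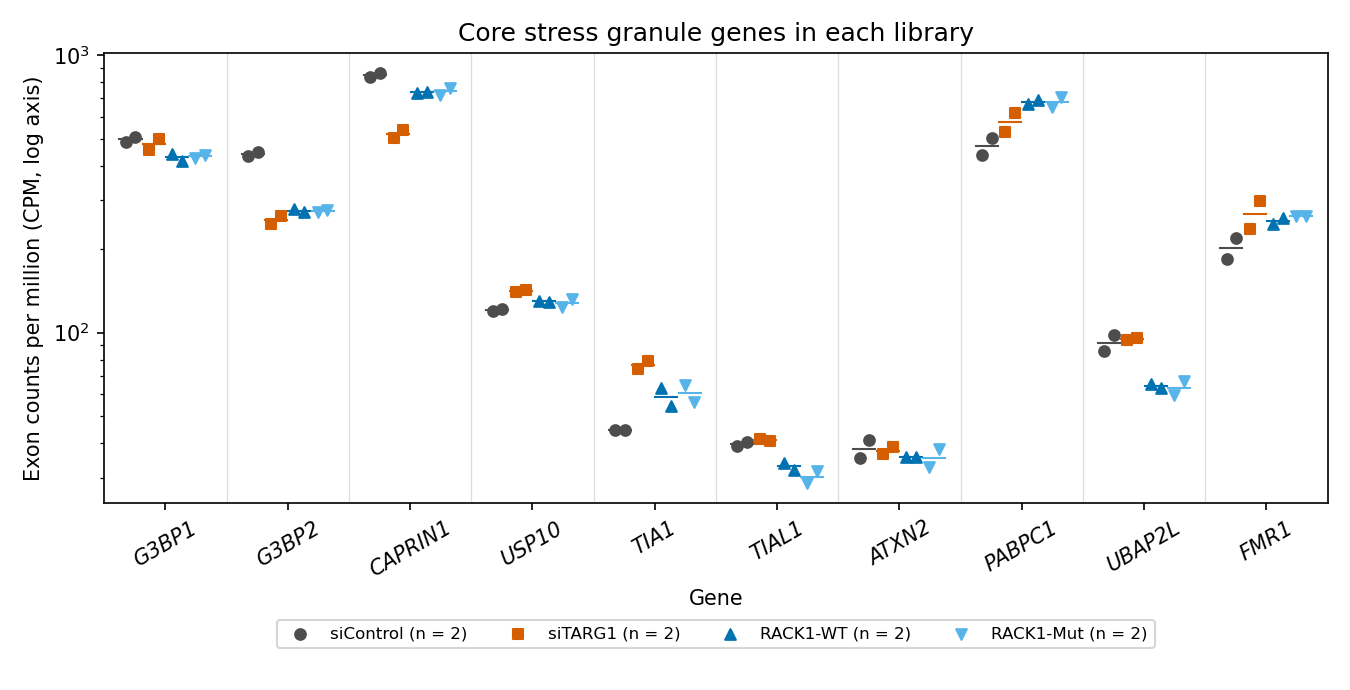
CPM over all exons (vertical log axis) of the 10 core stress granule genes (horizontal axis) in each of the 8 libraries, with 2 points per group and a line at the group mean. G3BP2 and CAPRIN1 lay lower and TIA1 higher in both siTARG1 libraries than in both siControl libraries, and the RACK1-WT and RACK1-Mut points lay close to each other for each gene.

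Among the G3BP scaffolds, RNA of G3BP2 (ENSG00000138757, GRCh37 chromosome 4, bases 76567033 to 76649773, minus strand) was at 432 and 447 CPM in the siControl libraries and at 246 and 263 CPM in the siTARG1 libraries. Both siTARG1 values lay well below both siControl values. G3BP2 fell by 0.79 on the log2 scale (SE, the standard error, 0.07, 95% interval -0.93 to -0.65, edgeR QL test, adjusted p = 3.88e-07). The size of this change was exceeded by 14.9% of all genes tested. G3BP1 (ENSG00000145907, GRCh37 chromosome 5, bases 151150606 to 151192472, plus strand) was at 489 and 508 CPM with siControl and at 456 and 498 CPM with siTARG1, and these ranges overlap. Its log2 fold change was -0.06 with a 95% interval of -0.21 to 0.09 (edgeR QL test, adjusted p = 0.482), so a fall of the size seen for G3BP2 lay outside the interval for G3BP1.

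Expressed within a library, the ratio of G3BP2 to G3BP1 counts was 0.884 and 0.879 with siControl and 0.538 and 0.528 with siTARG1. It was 0.633 and 0.653 with RACK1-WT and 0.634 and 0.632 with RACK1-Mut. A ratio of counts depends on the lengths of both transcripts, and only its change between groups can be read. The ratio was lower in both siTARG1 libraries than in both siControl libraries, and an exact two-sided permutation test gave p = 0.333, the smallest that 2 libraries against 2 allow. For RACK1-Mut against RACK1-WT the same exact permutation test gave p = 0.667.

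Of the proteins that bind the G3BP site, CAPRIN1 (ENSG00000135387, GRCh37 chromosome 11, bases 34073278 to 34124157, plus strand) was at 837 and 861 CPM with siControl and at 503 and 540 CPM with siTARG1. The groups lay far apart relative to the gap between replicates. CAPRIN1 fell by 0.70 on the log2 scale (SE 0.07, 95% interval -0.85 to -0.55, edgeR QL test, adjusted p = 1.83e-06). USP10 (ENSG00000103194, GRCh37 chromosome 16, bases 84733592 to 84813528, plus strand), which antagonizes condensation, was at 120 and 121 CPM with siControl and at 140 and 142 CPM with siTARG1. Its replicates differed by little and the groups did not overlap. USP10 rose by 0.23 on the log2 scale (SE 0.06, 95% interval 0.09 to 0.36, edgeR QL test, adjusted p = 0.0108), and without siControl replicate 1 the adjusted p was 0.0539. The aligner kept reads that match up to 64 places, and 26.79% of the 30-base words of USP10 transcripts are also found in transcripts of 3 other annotated genes, so its count may hold reads of others.

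TIA1 (ENSG00000116001, GRCh37 chromosome 2, bases 70436576 to 70475792, minus strand) was at 44.5 and 44.4 CPM with siControl and at 74.1 and 78.8 CPM with siTARG1. The siTARG1 libraries lay above the siControl libraries by many times the gap between replicates. TIA1 rose by 0.78 on the log2 scale (SE 0.09, 95% interval 0.59 to 0.97, edgeR QL test, adjusted p = 8.01e-06). Its paralog TIAL1 (ENSG00000151923, GRCh37 chromosome 10, bases 121331314 to 121356541, minus strand) was at 39.0 and 40.3 CPM with siControl and at 41.5 and 40.7 CPM with siTARG1. The log2 fold change of TIAL1 was 0.05 with a 95% interval of -0.12 to 0.22 (edgeR QL test, adjusted p = 0.612). The ratio of TIA1 to TIAL1 counts was 1.14 and 1.1 with siControl, 1.79 and 1.94 with siTARG1, 1.85 and 1.7 with RACK1-WT, and 2.26 and 1.77 with RACK1-Mut. It was higher in both siTARG1 than in both siControl libraries (exact two-sided permutation p = 0.333, the smallest allowed), and overlapped between the RACK1 groups (exact permutation p = 0.667).

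**Figure D2:**
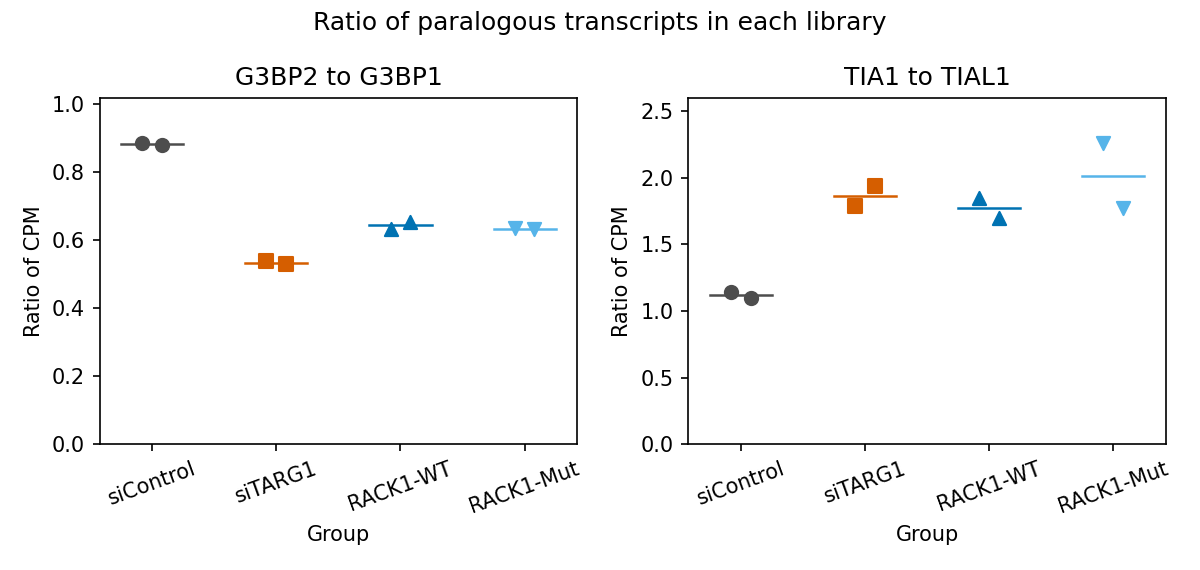
Ratio of CPM (vertical axis, from 0) of G3BP2 to G3BP1 and of TIA1 to TIAL1 in each library, by group (horizontal axis), with a line at the mean of 2 libraries. The G3BP2 to G3BP1 ratio lay between 0.528 and 0.538 with siTARG1 against 0.879 and 0.884 with siControl, and the TIA1 to TIAL1 ratio was lowest in the siControl libraries.

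PABPC1 (ENSG00000070756) was at 438 and 503 CPM with siControl and at 530 and 618 CPM with siTARG1. The siTARG1 libraries lay above the siControl libraries, by less than the gap between the siTARG1 replicates. PABPC1 rose by 0.29 on the log2 scale (SE 0.09, 95% interval 0.10 to 0.48, edgeR QL test, adjusted p = 0.016). Without siControl replicate 1 the log2 fold change was 0.20 with an adjusted p of 0.144, and without siTARG1 replicate 2 it was 0.16 with an adjusted p of 0.162. Of the 30-base words of PABPC1 transcripts 36.79% are shared with 18 other annotated genes, PABPC3 first among them, and how many of its reads came from those genes was not tested. For the core genes other than PABPC1 and USP10 this share was at most 3.95% (TIA1, shared with C2orf42), with G3BP1 at 1.9%, mostly shared with its pseudogene G3BP1P1, and G3BP2 at 0. ATXN2 (ENSG00000204842, GRCh37 chromosome 12, bases 111881289 to 112037480, minus strand) was at 35.3 and 41.0 CPM with siControl and at 36.4 and 38.6 CPM with siTARG1, which lie within the siControl range. Its log2 fold change was -0.02 with a 95% interval of -0.22 to 0.18 (edgeR QL test, adjusted p = 0.862).

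FMR1 (ENSG00000102081, GRCh37 chromosome X, bases 146993437 to 147032645, plus strand) was at 185 and 219 CPM with siControl and at 236 and 300 CPM with siTARG1. The groups did not overlap, but the gap between the groups was smaller than that between the siTARG1 replicates. FMR1 rose by 0.41 on the log2 scale (SE 0.10, 95% interval 0.19 to 0.63, edgeR QL test, adjusted p = 0.00466). Without siTARG1 replicate 2 the log2 fold change was 0.22 with an adjusted p of 0.0587, and without siTARG1 replicate 1 it was 0.57. UBAP2L (ENSG00000143569, GRCh37 chromosome 1, bases 154192655 to 154243986, plus strand) was at 85.6 and 97.8 CPM with siControl and at 94.4 and 95.4 CPM with siTARG1, within the siControl range. Its log2 fold change was 0.05 with a 95% interval of -0.12 to 0.22 (edgeR QL test, adjusted p = 0.641).

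**Figure D3:**
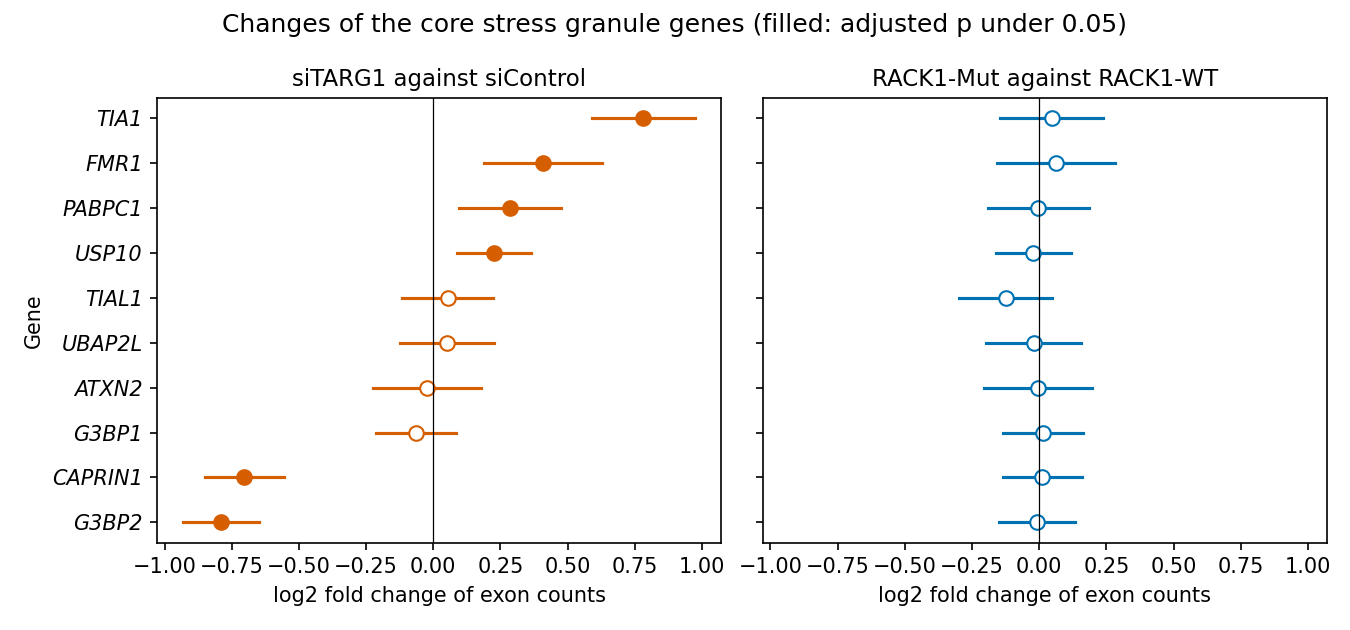
Log2 fold change of exon counts (horizontal axis) with its 95% interval for each core gene (vertical axis, ordered by the siTARG1 change), from 2 libraries per group, filled where the adjusted p was under 0.05. In siTARG1 against siControl 6 genes were filled, from -0.79 for G3BP2 to 0.78 for TIA1, and in RACK1-Mut against RACK1-WT each interval crossed 0.

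The comparison of RACK1-Mut with RACK1-WT asks whether RNA differs between cells with and without the RACK1 MARylation sites. RACK1 RNA was also lower with RACK1-Mut (1400 and 1450 against 1760 and 1900 CPM), which cannot be told apart from loss of the sites. Of the core genes 0 passed the threshold of the edgeR QL test and 0 had an unadjusted p under 0.05, with DESeq2 also at 0. Of all genes tested 0.00713% passed, which is 1 gene, and 687 had an unadjusted p under 0.05, while DESeq2 called 15 genes. With only the 4 libraries of this comparison in the edgeR fit, 49 of all genes and 0 core genes passed. The widest change of a core gene was that of TIAL1, from 34.0 and 32.0 CPM with RACK1-WT to 28.7 and 31.7 CPM with RACK1-Mut, a log2 fold change of -0.13 with a 95% interval of -0.30 to 0.05. TIAL1 and FMR1 were the core genes whose RACK1-WT and RACK1-Mut libraries did not overlap, 2 of 10 against 37.8% of all genes tested. FMR1 was at 246 and 259 CPM with RACK1-WT and at 264 and 263 CPM with RACK1-Mut, a log2 fold change of 0.06 with an interval of -0.16 to 0.28.

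For the scaffolds, RNA of G3BP1 was at 440 and 417 CPM with RACK1-WT and at 428 and 437 CPM with RACK1-Mut, a log2 fold change of 0.01 with a 95% interval of -0.14 to 0.16. G3BP2 was at 278 and 272 CPM with RACK1-WT and at 271 and 276 CPM with RACK1-Mut, and its interval was -0.15 to 0.13. CAPRIN1 was at 729 and 741 CPM with RACK1-WT and at 718 and 764 CPM with RACK1-Mut, with an interval of -0.14 to 0.16. These ranges of the scaffolds overlapped between the groups.

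USP10 was at 130 and 129 CPM with RACK1-WT and at 124 and 132 CPM with RACK1-Mut, with an interval of -0.16 to 0.12. TIA1 was at 63.0 and 54.3 CPM against 64.8 and 56.2 CPM, with an interval of -0.15 to 0.24. PABPC1 was at 668 and 693 CPM against 651 and 708 CPM, with an interval of -0.19 to 0.19. For each of these the ranges overlapped, as they did for ATXN2 and UBAP2L, whose intervals were -0.21 to 0.20 and -0.20 to 0.16. Of the 10 core genes no interval reached beyond 0.30 in size on the log2 scale, so that larger changes in RNA lay outside these intervals, whereas smaller ones could not be told from 0 with 2 libraries per group. The median size of the change was 0.02 for the core genes and 0.07 for all genes tested.

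Next, the difference between the effects of siTARG1 and of RACK1-Mut was tested in the same fit. The effects come from separate experiments, so a different effect cannot be told apart from a difference in line, Dox or transfection. For G3BP2, CAPRIN1 and TIA1 the RACK1-Mut changes were -0.01, 0.01 and 0.05, so the difference largely repeats their siTARG1 changes. The difference passed the threshold for 3 of the 10 core genes and for 32.4% of all genes tested. These were G3BP2 (difference -0.78, SE 0.09, adjusted p = 2.54e-05), CAPRIN1 (-0.71, SE 0.10, adjusted p = 7.7e-05) and TIA1 (0.74, SE 0.13, adjusted p = 0.000523), each from the edgeR QL test. USP10, FMR1 and PABPC1 had adjusted p-values of 0.0525, 0.0816 and 0.0923 from the same edgeR test, so that a different effect was not shown for them, though these calls depended on the setting. USP10 passed where at least 10 counts were required in every library (edgeR QL test, adjusted p = 0.0452), and FMR1 with no filter on low counts. With coding-sequence reads, and without siControl replicate 2 or without siTARG1 replicate 1, FMR1 and PABPC1 passed as well, for 5 genes in all.

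Levels in the RACK1 cells are set beside those of the siRNA cells without a test, since the experiments differ in more than RACK1. In the order of the 4 group means of CPM, siControl was highest for G3BP1, G3BP2, CAPRIN1 and ATXN2. It was lowest for USP10, TIA1, PABPC1 and FMR1, with TIAL1 and UBAP2L highest in siTARG1. The mean CPM of G3BP2 in RACK1-WT cells was 0.626 of the siControl mean, near the 0.578 of siTARG1 cells. For CAPRIN1 the RACK1-WT mean was 0.866 of siControl, for TIA1 1.32-fold and for PABPC1 1.45-fold. UBAP2L was at 65.2 and 63.1 CPM in RACK1-WT cells, 0.699 of the siControl mean, while siTARG1 cells were at 1.03-fold. Of the groups next to each other in this order, RACK1-WT and RACK1-Mut overlapped for 8 of the 10 core genes, siControl and siTARG1 for G3BP1, ATXN2 and UBAP2L, and siTARG1 and RACK1-Mut for FMR1. The other neighbours did not overlap. This order depends on the scaling. By the authors' exon RPKM, siControl was lowest for G3BP1 (19.59 against 22.74 with RACK1-WT) and for ATXN2 (3.209 against 4.048). CAPRIN1 was then at 58.86 with siControl and at 68.74 with RACK1-WT. UBAP2L was at 9.241 with siControl and at 8.755 with RACK1-WT, closer together than by CPM. TIAL1 was then lowest with siControl (11.41) and highest with RACK1-WT (12.84), with siTARG1 at 12.8. G3BP2 stayed highest with siControl (35.63). Its RACK1-WT mean (30.14) then lay closer to siControl than to siTARG1 (22.18), so the nearness to siTARG1 held by CPM only. As by CPM, siControl was lowest for USP10, TIA1, PABPC1 and FMR1.

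Counts by region of the transcript were examined next, since a readout over the coding sequence or the 3′ untranslated region (UTR) does not use the same reads. G3BP2 changed by -0.77 on the log2 scale over the coding sequence and by -0.79 over the 3′ UTR, and CAPRIN1 by -0.67 and -0.73, with each value past the threshold. TIA1 changed by 0.70 over the coding sequence and by 0.92 over the 3′ UTR, both past the threshold. USP10, PABPC1 and FMR1 passed over the coding sequence (0.24, 0.31 and 0.46) and did not over the 3′ UTR (0.25, 0.25 and 0.37, with adjusted p of 0.132, 0.284 and 0.141 in the edgeR QL test). For UBAP2L the 3′ UTR held few reads, 75.5 and 63.1 with siControl against 123 and 132 with siTARG1, and over it alone the log2 fold change was 0.61 (edgeR QL test, adjusted p = 0.0313), whereas the coding sequence was at 0.06.

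**Figure D4:**
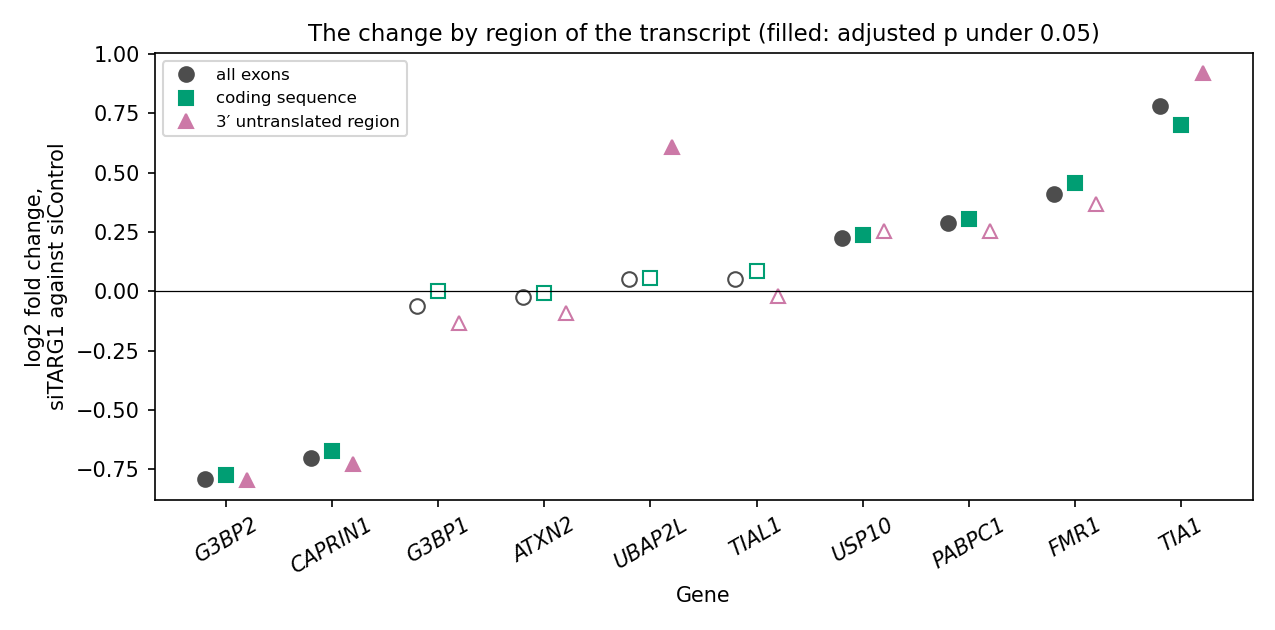
Log2 fold change in siTARG1 against siControl (vertical axis) of each core gene (horizontal axis) counted over all exons, the coding sequence or the 3′ untranslated region, from 2 libraries per group, filled where the adjusted p was under 0.05. The 3 values of G3BP2 and of CAPRIN1 lay together between -0.79 and -0.67, and UBAP2L was at 0.61 over the 3′ untranslated region against 0.06 over the coding sequence.

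The ratio of 3′ UTR to coding reads within a gene, tested with limma on log2 values over 9956 genes, passed the threshold for 0 of the 10 core genes in siTARG1 against siControl, where 0.0904% of genes passed and 473 genes had an unadjusted p under 0.05. In RACK1-Mut against RACK1-WT 0 core genes passed and 0% of all genes did, with 107 genes at an unadjusted p under 0.05. UBAP2L had the widest change, with a ratio of 0.0227 and 0.0216 in siControl and 0.0317 and 0.0343 in siTARG1 libraries, a log2 change of 0.57 (SE 0.19, 95% interval 0.14 to 1.00). Its unadjusted p was 0.0149 and its adjusted p was 0.749 from limma, so that a shift between regions was not shown. For G3BP2 the log2 change in the ratio was 0.00 with an interval of -0.21 to 0.21, and for CAPRIN1 -0.03 with an interval of -0.21 to 0.16. The falls of G3BP2 and CAPRIN1 differed between the regions by no more than these intervals allow.

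Per base, the 3′ UTR was covered less than the coding sequence in siControl cells for each of the 10 core genes, with mean density ratios between 0.130 and 0.884. The authors' positions give G3BP1 a 3′ UTR of 8694 bases against 1401 of coding sequence, and the density of reads in it was 0.132 of the coding density in siControl cells. Of 11234 genes 6.07% had a lower ratio, and the median of all genes was 0.659. UBAP2L was at 0.130, with 5.87% of genes lower, and TIA1 was at 0.209, with 10.9% of genes lower. G3BP2 was at 0.633, CAPRIN1 at 0.419 and ATXN2 at 0.414. Above the median of all genes were TIAL1 at 0.884, USP10 at 0.737, PABPC1 at 0.734 and FMR1 at 0.709. An exon count of G3BP1 therefore rests on its coding sequence more than the lengths of its regions would give, and whether the annotated 3′ UTR is used in full in these cells was not tested.

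The 3′ UTRs of the core genes were searched for 4 words of 7 bases, read on the strand of the transcript, that came from an earlier scan of this same comparison of siTARG1 with siControl. Genes with TGAACAT or GAACATA in the 3′ UTR had lower changes in that scan and genes with GAATATA or TGAATAT had higher ones, and the words are shown as a description only. TGAACAT was found in 15.1% of 13747 genes, with a median log2 fold change of -0.13 against 0.03 for genes without it, and GAATATA in 15.1%, with 0.13 against -0.01. GAACATA was found in 9.47% of genes (median -0.15 against 0.02) and TGAATAT in 19.8% (0.09 against -0.01). TGAACAT and TGAATAT differ at 1 base, and each of them overlaps with GAACATA or GAATATA by 6 bases where the next base fits. The sites in the core genes are printed 5′ to 3′ on the transcript strand, from Gencode transcripts on GRCh37, with the word in capitals, because they show the same word in a gene that fell and in genes that did not pass.
CAPRIN1, TGAACAT, chr11:34122602-34122624 on the plus strand: taggctgtTGAACATtccacatt
G3BP1, TGAACAT, chr5:151186247-151186269 on the plus strand: catcacatTGAACATtttcagat
TIAL1, TGAACAT, chr10:121334962-121334984 on the minus strand: gatggataTGAACATgatttttc
TIA1, GAATATA, chr2:70438741-70438763 on the minus strand: atgtaaagGAATATAttaatttg
G3BP1, TGAATAT, chr5:151187563-151187585 on the plus strand: catttattTGAATATcaggtttt
UBAP2L, TGAATAT, chr1:154243188-154243210 on the plus strand: tggcgtcaTGAATATgaacagca

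The word TGAACAT thus lay in the 3′ UTRs of CAPRIN1, with a log2 fold change of -0.70, and of G3BP1 and TIAL1, at -0.06 and 0.05. TIA1, at 0.78, held GAATATA, and UBAP2L, at 0.05 over all exons, held TGAATAT. G3BP2, which had the lowest change at -0.79, held none of the 4 words in its 3′ UTR of 2648 bases. USP10, ATXN2, PABPC1 and FMR1 held none either. G3BP1 held a word of each kind, in the longest 3′ UTR of the core genes. The TIAL1 site starts at base 201 of a transcript's 3′ UTR of 2200 bases, whereas the authors counted 228 bases. The CAPRIN1 site starts at base 1696 of 3243, where the authors counted 3066. Whether the counted bases include these sites was not tested.

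Genes whose levels followed G3BP1 most closely over the 8 libraries were TRAK2 and SRBD1 (Pearson's r = 0.9892 each), GOLGA5 (0.9891), STRN3 (0.9884) and TAB2 (0.9846), among 6313 genes with a mean log2 CPM of at least 5. The 8 libraries are 4 groups from a pair of experiments, so these correlations are a description and have no p.

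Genes around the core were described from 4 lists. Of 46 other RNA-binding proteins of stress granules, 20 passed the threshold in siTARG1 against siControl, 9 higher and 11 lower (43.5% against the 46.6% of all genes), with a median log2 fold change of -0.01. The highest were PABPC4, a cytoplasmic poly(A)-binding protein related to PABPC1, at 0.80, NUFIP2 at 0.52 and CCAR1 at 0.37. The lowest were STAU1, which binds double-stranded RNA, at -0.92, the mRNA-binding IGF2BP2 at -0.57 and CNBP at -0.55. Of 24 initiation factors that are held in granules, 10 passed, 2 higher and 8 lower (41.7% against the 46.6% of all genes). Their median log2 fold change was -0.06. EIF4B, a helper of the helicase eIF4A, rose by 0.72 and EIF1 by 0.30, whereas EIF3B changed by -0.72, EIF3J by -0.68 and the helicase EIF4A1, whose row also holds SENP3, by -0.71.

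Of 17 genes tested for the eIF2 kinases, eIF2 and its phosphatases, which set whether initiation stalls, 4 passed (23.5% against 46.6% of all genes). EIF2AK4, the kinase that senses amino acid shortage, was at 0.73 and PPP1R15A, a subunit that directs the phosphatase to eIF2, at 0.22. PPP1CC, a catalytic subunit of that phosphatase, was at -0.63 and EIF2B2, a subunit of the exchange factor of eIF2, at -0.47. Of 19 granule clearance factors tested, 10 passed, 6 higher and 4 lower (52.6%), with a median of 0.02. The 6 include HSPA1A and HSPA1B (both 0.35), near-identical genes that can share reads and may not count separately. The autophagy kinases ULK1 and ULK2 were at 0.85 and 0.51 and MAP1LC3B, an autophagosome protein, at 0.36, whereas the co-chaperone BAG3 was at -0.80, the chaperone HSPA8 at -0.64 and the autophagy receptor SQSTM1 at -0.37. In each of these lists genes passed in both directions, as in the core. In RACK1-Mut against RACK1-WT 0 genes of the 4 lists passed the edgeR QL test or DESeq2. At an unadjusted p under 0.05 in the edgeR QL test were 3 genes, named here after their values were seen, DDX1 at -0.17 and the near-identical heat shock genes HSPA1A and HSPA1B at 0.17 and 0.16, which can share reads.

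**Figure D5:**
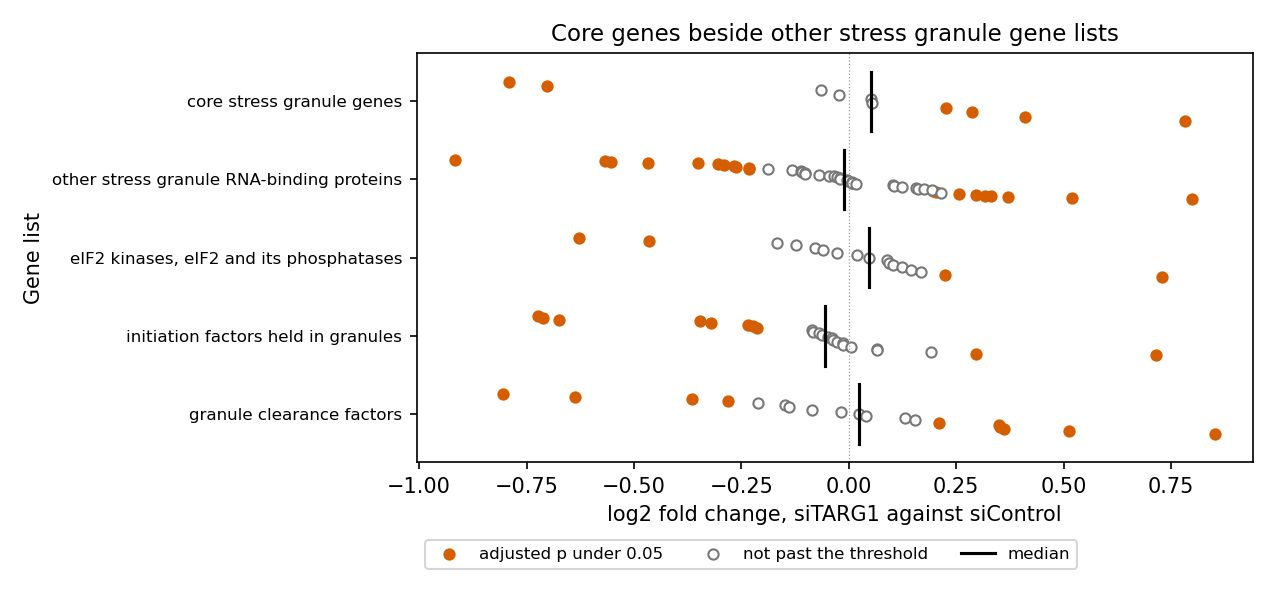
Log2 fold change in siTARG1 against siControl (horizontal axis) of each gene tested in the core list and in 4 other stress granule lists (vertical axis, 2 libraries per group), filled where the adjusted p was under 0.05, with a bar at the median of the list. Each list held filled genes on both sides of 0, and the medians lay between -0.06 and 0.05.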

How the data were processed

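RNA-seq of 8 OVCAR3 libraries, 2 in each of 4 groups taken from the sample labels, was analysed. The deposited expected counts are estimated counts of alignments of 25 to 51 bases per exon, coding or untranslated region, made by the authors with Plastid after removal of rRNA reads (Bowtie 1.1.2) and alignment to GRCh37 and Gencode release 24 (TopHat2 2.1.1, up to 64 places per read). The authors' RPKM values divide them by region length and alignments. Replicates were not pooled. Of the 36595 transcript names 94.7% matched Gencode v44 on the same build.

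Exon counts, rounded to whole numbers, entered a fit in R 4.3.3 with edgeR 4.0.16 (quasi-likelihood test, TMM, filterByExpr, all 8 libraries as 4 groups, 4 residual degrees of freedom, Benjamini-Hochberg over the 14024 genes tested, threshold 0.05). CPM uses TMM library sizes. The log2 ratio of 3′ UTR to coding reads (pseudocount 0.5, a mean of at least 50 reads in each region) was tested with limma 3.58.1. Sequences were searched with Python 3.11.15. Tests were checked on simulated data. The alternatives were DESeq2 1.42.0, RLE, other filters, a replicate block, other regions, summed rows, RPKM and each library left out. The members, lists, words and rules were chosen with earlier results of these data known. Genes named are all members and, per list, all called genes if 5 or fewer, otherwise the 3 highest and the 3 lowest called, plus the 5 genes most like G3BP1. Libraries held 30989049 to 42668783 exon counts, and with 2 libraries per group the spread is estimated from few samples.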

Additional observations from a re-analysis of the deposited data

How the results depend on the processing

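In siTARG1 against siControl, G3BP2, CAPRIN1 and TIA1 kept direction and call under each of 17 alternatives with a test. USP10, PABPC1 and FMR1 kept direction under these and lost the call over 3′ UTR reads, and USP10 without siControl replicate 1, PABPC1 without siControl replicate 1 or siTARG1 replicate 2, and FMR1 without siTARG1 replicate 2. The median of the core genes was 0.17 with the authors' RPKM, 0.12 over 3′ UTR reads and between 0.00505 and 0.124 with a library left out. For the difference of effects, 6 core genes passed with the replicate block (USP10, FMR1 and PABPC1 in addition), 5 with coding reads and between 3 and 5 with a library left out. The replicate numbers share no stated batch, and same-numbered libraries correlated by 0.256 (siRNA) and 0.0283 (RACK1); the block moved the genes called in the RACK1 comparison from 1 to 72, and changed no call of a core gene in either comparison.

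Values near 0 that did not pass changed sign. With the authors' RPKM, which gives no test, these were G3BP1 (0.0415) and ATXN2 (0.0877) in siTARG1, and G3BP2 (0.0272), USP10 (0.0148), ATXN2 (0.0321), PABPC1 (0.0353) and UBAP2L (0.0156) in RACK1-Mut. In siTARG1 each core gene had a higher value with RPKM than in the main fit. G3BP2 moved from -0.79 to -0.684, for example, and TIA1 from 0.782 to 0.887. Among the tested alternatives, in siTARG1 these were G3BP1 over coding reads (0.00244), TIAL1 over 3′ UTR reads (-0.0185), and with a library left out ATXN2 (-0.117 to 0.0931) and UBAP2L (-0.0311 to 0.155). In RACK1-Mut they were, over coding reads, G3BP1 (-0.0164), TIA1 (-0.0107), ATXN2 (0.013) and FMR1 (-0.0105), over 3′ UTR reads CAPRIN1 (-0.00376), PABPC1 (0.109) and UBAP2L (0.134), and PABPC1 with no filter (0.000435). With a library left out they were G3BP1 (-0.023 to 0.05), G3BP2 (-0.0233 to 0.00562), CAPRIN1 (-0.0331 to 0.0563), USP10 (-0.0696 to 0.0251), TIA1 (-0.0588 to 0.156), ATXN2 (-0.115 to 0.0978), PABPC1 (-0.0641 to 0.0561) and UBAP2L (-0.107 to 0.0613). For the difference of effects they were G3BP1 over coding reads (0.0189), and with a library left out ATXN2 (-0.121 to 0.0963) and UBAP2L (-0.0123 to 0.174). The cause was not tested. A fit that left a group with 1 library assumed that it varies like the others.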
